A study of Drosophila melanogaster with 4 samples.

Results

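Broad CBP regions are the stretches of 1000 bp or more in the authors' lists of CBP-bound DNA in early Drosophila embryos. They were chosen by their width alone, as the end minus the start of each listed region. The gd7 list held 264 of them among 1939 regions, and the wild-type list 205 among 3013. The groups were gd7 embryos, which lack the Rel-family factor Dorsal in their nuclei, and wild-type embryos of the w1118 strain. Both were collected over 2 hours and aged for another 2 hours, so that they were 2 to 4 hours old. Chromatin was immunoprecipitated with a rabbit antibody against Drosophila CBP and sequenced (ChIP-seq), with input DNA of each genotype beside it. Each genotype has 1 CBP library, pooled from several immunoprecipitations of many embryos. There is therefore no replicate check on any difference, no p-value is given, and the 95% intervals below cover counting error over regions only. Whole embryos were used, so more cells with CBP at a locus and more CBP per cell cannot be told apart.

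CBP (nejire in Drosophila) is a co-activator that acetylates histones and is brought to enhancers and promoters by many transcription factors. A short bound region is often a single enhancer or a promoter, whereas a long one can span several neighbouring elements or a stretch of chromatin around a gene. In a wild-type embryo, graded nuclear Dorsal divides the dorsal-ventral axis into mesoderm, neuroectoderm and dorsal ectoderm, and Dorsal represses genes of the dorsal ectoderm such as dpp and zen in ventral cells. Without nuclear Dorsal, the embryo takes on the dorsal ectoderm fate, in which the BMP-type ligand Dpp signals. Each listed region carries 1 value, the log2 enrichment over input averaged over its highest consecutive positions. Signal under the authors' limit is not listed, so a region missing from a list was either too weak or too short there. Genes are named by the nearest start site in the study's peak table. That table was held in full for wild-type on 2L, 2R and 3L and for part of 3R, and for gd7 only on part of 2L. Elsewhere, a gd7 region was named through an overlapping wild-type region, and regions on chromosomes X and 4 and most of those on 3R are given by position. All positions are on release 5 of the genome.

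Broad regions took a larger share of the gd7 list than of the wild-type list. They made up 13.6% of gd7 regions (95% Wilson interval 12.2 to 15.2%) and 6.80% of wild-type regions (5.96 to 7.76%). The excess in number was not kept when neighbours within 500 bp were joined, which gave 331 broad regions in gd7 and 333 in wild-type. In base pairs as listed, they covered 411355 of 1175055 bp in gd7 and 301980 of 1438360 bp in wild-type. Their median width was 1365 bp in gd7, with a highest of 5495 bp, and 1260 bp in wild-type, with a highest of 5600 bp. Regions of 2 kb or more numbered 43 in gd7 and 27 in wild-type. On each large arm the gd7 share was the higher, from 11.8% on 2R to 15.9% on 3L in gd7 and from 5.95% on 2L to 7.79% on X in wild-type. Chromosome 4 held 1 broad region of 8 in gd7, 2345 bp long from 78995 to 81340, and none of 28 in wild-type, which allows a share of up to 12.1% (Wilson). The listed widths nearest to 1000 bp were 980 bp, with 21 regions in gd7 and 24 in wild-type, and 1015 bp, with 18 regions in gd7 and 11 in wild-type. The regions just inside had a median value of 3.12 in gd7 and 2.80 in wild-type, and those just outside had 3.01 in gd7 and 2.81 in wild-type.

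**Figure D1:**
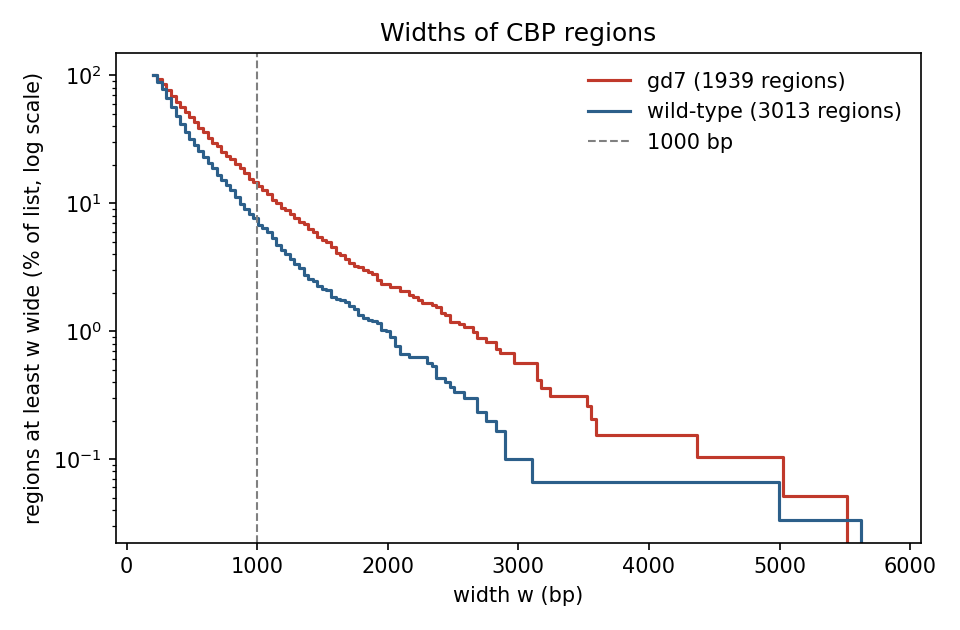
Share of the listed regions (y, percent on a log scale) that are at least as wide as the value on the x axis (bp), for 1939 gd7 regions (red) and 3013 wild-type regions (blue). At 1000 bp, the dashed line, the gd7 curve stands at 13.6% and the wild-type curve at 6.80%.

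The link between width and strength differed between the lists. Among the 100 regions with the highest values, 65 were broad in gd7 and 21 in wild-type, and the median width was 1260 bp in gd7 and 560 bp in wild-type. All of the 10 strongest regions were broad in gd7, and 1 was in wild-type. Among regions with values of 4.0 or more, 88.9% were broad in gd7 (71.9 to 96.1%, 24 of 27 regions) and 21.4% in wild-type (9 of 42). Between 3.5 and 4.0 the shares were 53.8% in gd7 and 17.7% in wild-type. Between 2.5 and 3.0 they were 12.5% in gd7 and 11.2% in wild-type. From 3.0 to 3.5, 3.5 to 4.0 and 4.0 upward, the median width was 770, 1085 and 1925 bp in gd7, against 595, 560 and 595 bp in wild-type. The strongest wild-type regions were thus mostly short. Over all regions of a list, Spearman's rho of width and value was 0.68 in gd7 and 0.55 in wild-type, a description over regions of 1 library each, whose width and value come from the same signal.

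**Figure D2:**
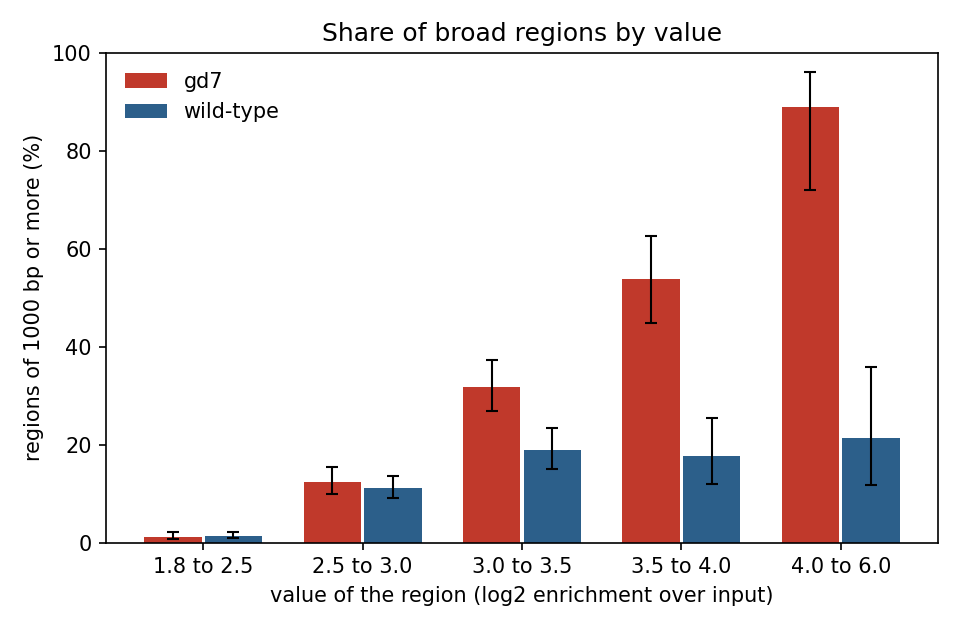
Percent of regions that are 1000 bp or more (y) within 5 bins of the value, log2 enrichment over input (x), gd7 in red to the left of wild-type in blue. Bars are shares and whiskers 95% Wilson intervals. In the highest bin, 88.9% of 27 gd7 regions and 21.4% of 42 wild-type regions were broad.

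At places with about the same value in both genotypes, the median widths were close, and the wild-type region was more often the wider. Across all 1267 overlapping pairs of a gd7 and a wild-type region, 350 had values within 0.25 of each other. The median width in these pairs was 437.5 bp in gd7 and 490 bp in wild-type, and 52 were broad in gd7 and 53 in wild-type. The wild-type region was the wider in 182 of them, the gd7 region in 141, and 27 had the same width. Over all pairs the median was 525 bp in each genotype, with the wild-type region wider in 621 and the gd7 region in 577. The pairs were not split by value, so they do not show how widths compare among strong regions. Of the 79 strongest wild-type regions that were narrower than 1000 bp, 4 had a broad gd7 partner.

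The strongest broad region of gd7 embryos, and the strongest gd7 region of any width, was at Tom, on 3L in the Bearded gene complex, whose small proteins hold back the Notch-pathway ubiquitin ligase Neuralized. It ran from 14960260 to 14962780, with a value of 5.06 in gd7, and covered wild-type regions of 3.49 and 3.89. The neighbouring Tom region, from 14955570 to 14959910, was the third widest in gd7 at 4340 bp, with 4.37, against wild-type regions of 2345 bp and of 735 bp. The stronger of these was lower than the gd7 region by 1.37 on the log2 scale. At Brd, a further gene of the complex, the region was 2625 bp wide with 3.98 in gd7 and 1925 bp wide with 2.91 in wild-type. At BobA, a region was 1365 bp with 3.33 in gd7 and 945 bp with 2.35 in wild-type, while a second one, of 1400 bp with 2.27, was in wild-type alone. Over 27090 bp of the complex from 14945735 to 14972825, there were 6 broad regions in gd7, adding up to 13090 bp, and 4 in wild-type, adding up to 6895 bp. More broad regions lay there than in any other chain of broad regions less than 10 kb apart. After Tom, the strongest broad regions with a named gene in gd7 were at ppa, which encodes an F-box protein, at 4.49 against 3.63 in wild-type, and at CG13130, at 4.44 against 3.11. Those at Nrt, the gene of the adhesion protein Neurotactin, and at shg, the gene of E-cadherin, had 4.35 and 4.29 in gd7, against 3.08 and 3.26 in wild-type. The others of the 10 strongest lay on X, and at each of the 10 the gd7 value was the higher. These were picked for high gd7 values, so the choice itself favours that direction. At each of the 10 strongest broad regions of wild-type, the gd7 value was the lower.

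The widest gd7 regions lay next to each other on 2R. The widest, at CG42807 from 9453255 to 9458750, was 5495 bp with 3.62. It overlapped 4 separate wild-type regions of 455, 1260, 245 and 2800 bp with values of 2.25, 2.88, 2.43 and 3.25. The next, at CG13334 from 9447445 to 9452450, was 5005 bp with 3.73 in gd7, while the wild-type region, from 9447480 to 9452450, was 4970 bp with 3.09. Here the borders were nearly the same in both genotypes, whereas at CG42807 a continuous region in gd7 stood against a broken one in wild-type. At chn, the gene of the zinc finger factor Charlatan, a region of 3570 bp with 3.88 in gd7 covered wild-type regions of 1295 bp with 2.91 and 420 bp with 2.29. At scyl, a growth regulator induced by low oxygen, the region from 11235000 to 11238535 on 3L was 3535 bp wide with 3.90 in gd7, against wild-type regions of 525 and 770 bp with 2.27 and 2.06. In all, 4 broad gd7 regions lay within 25935 bp around scyl, and no broad wild-type region did. Others of the 10 widest in gd7 were at CG17765 (3500 bp), psq (3115 bp), which encodes a BTB-domain DNA-binding protein, and tna (3115 bp), with a pair on X. The values of the 10 widest ran from 3.10 to 4.37 in gd7, so the widest regions were not all among the strongest.

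In wild-type the widest region was at CG9894, on 2L from 2750195 to 2755795, at 5600 bp with 3.97. It held 3 gd7 regions, of 1505, 2170 and 735 bp with 3.59, 3.23 and 2.83, so that here gd7 was the broken one. At Lk6, a kinase gene on 3R, 2 gd7 regions overlapped a wild-type region of 3080 bp with 3.93. The wider of them was 1540 bp with 3.46. At ps, the gene of the splicing factor Pasilla, gd7 had 3 regions of 280, 420 and 315 bp with 2.21, 2.36 and 3.11, inside a wild-type region of 2030 bp with 3.55. On X, gd7 regions of 700, 385 and 315 bp lay in a wild-type region from 7950460 to 7953190, at 2730 bp with 3.76. At Su(Tpl), an elongation factor gene, gd7 regions of 280, 210 and 630 bp lay in a wild-type region of 1925 bp, and the highest gd7 value, 2.91, was near the wild-type value of 2.85.

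**Figure D3:**
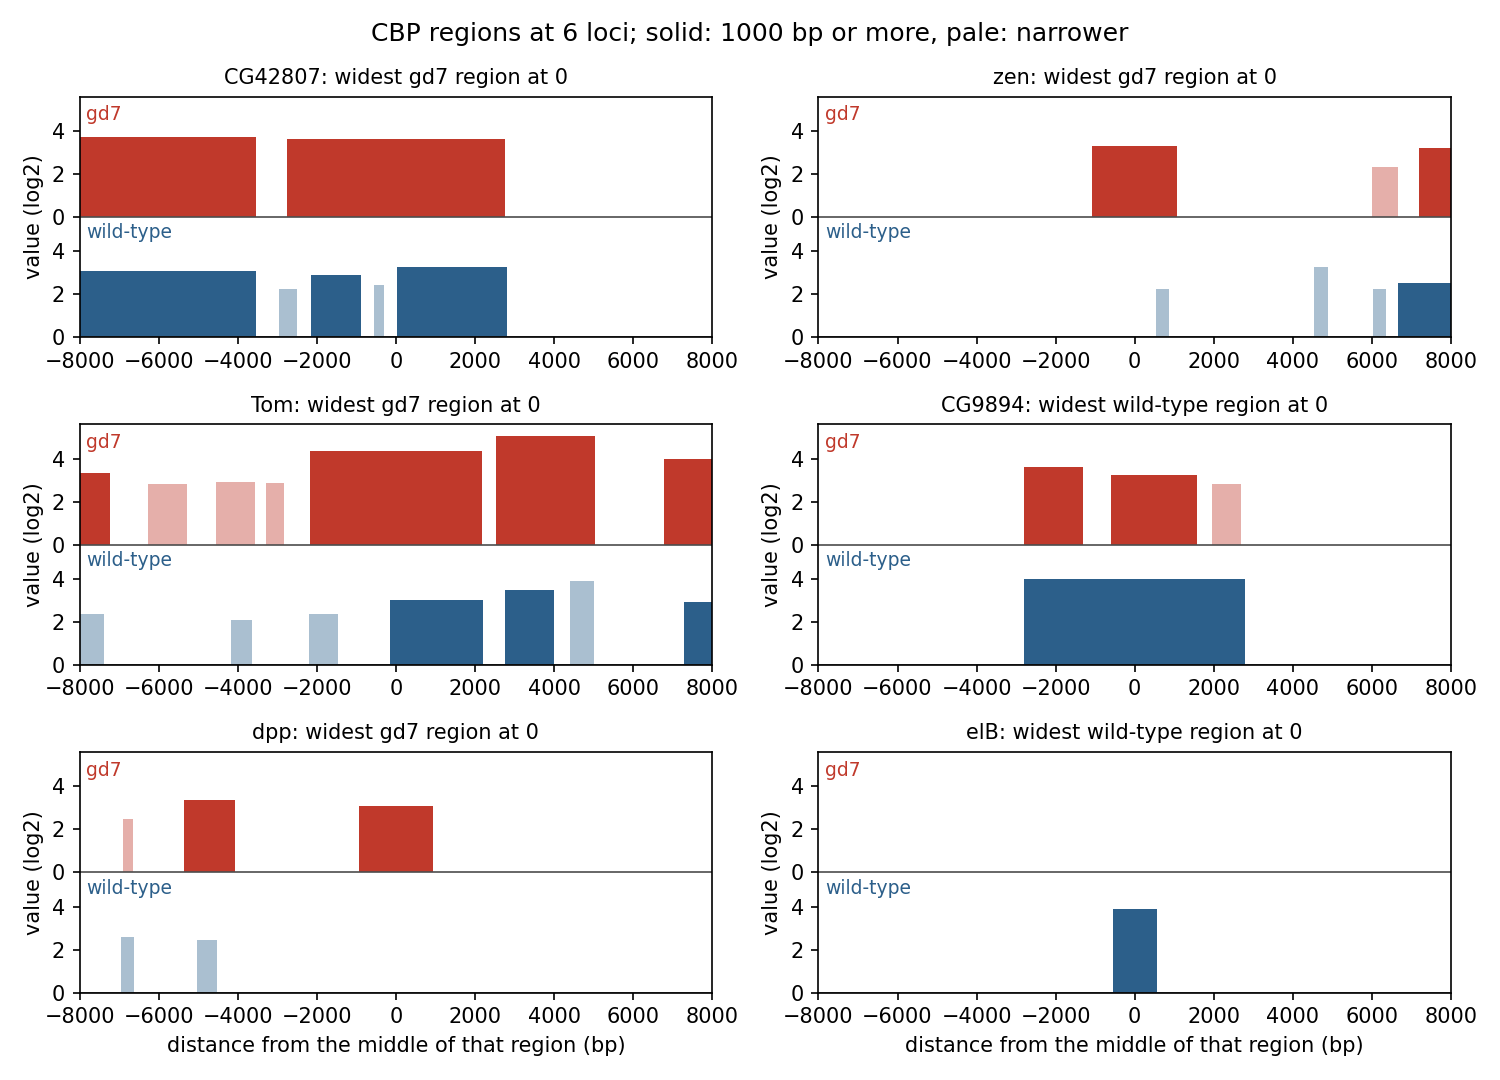
CBP regions around the middle of the widest broad region of 6 genes (x, distance in bp), with gd7 (red) above wild-type (blue). Each block spans 1 listed region and its height is that region's value (log2 enrichment, y); solid blocks are 1000 bp or more, pale ones narrower. The gd7 region at CG42807 overlaps 4 wild-type regions, and the wild-type region at CG9894 covers 3 gd7 regions. The dpp region at 0 has no wild-type partner, and elB has no gd7 region.

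Most broad regions were bound in the other genotype too. Of broad gd7 regions, 223 (84.5%, 79.6 to 88.3%) overlapped a wild-type region, beside 62.7% of all gd7 regions and 59.2% of the narrower ones. Of broad wild-type regions, 176 (85.9%, 80.4 to 90.0%) overlapped a gd7 region, beside 40.4% of all wild-type regions and 37.1% of the narrower ones. A longer region has more room to meet another. With the stricter rule that a region's own peak centre lies inside a region of the other list, the shares were 70.8% of broad gd7 regions, beside 57% of the list, and 79.0% of broad wild-type regions, beside 37.6% of the list. Broad regions are also stronger, with median values of 3.24 in gd7 and 2.95 in wild-type, against 2.46 and 2.37 for the narrower ones. At values from 3.0 to 3.5, overlap was 84.0% for broad and 81.1% for narrower gd7 regions, with intervals that overlap. In wild-type at the same values it was 96.7% (88.8 to 99.1%) for broad and 62.0% (56.0 to 67.6%) for narrower regions. At values from 2.5 to 3.0, overlap was 77.8% for broad and 64.0% for narrower gd7 regions, and 79.8% for broad and 41.0% for narrower wild-type regions. At like strength, the gap between broad and narrower regions was therefore the larger in the wild-type list, a comparison with no replicate behind it.

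Breadth itself was shared at fewer places. A broad wild-type region lay under 89 broad gd7 regions (33.7%, beside 10.9% of all gd7 regions), and a broad gd7 region under 89 broad wild-type regions (43.4%, beside 8.76% of all wild-type regions). These formed 91 pairs, in which the centres were a median of 140 bp apart and 58 pairs had centres within 350 bp. The gd7 region was the wider in 52 pairs, the wild-type region in 34, and 5 had the same width. The median difference in width was 70 bp, with an interval from 0 to 140 bp. Both genotypes had broad regions at Psc, a Polycomb group gene, and at Trl, the gene of the GAGA factor. At the first Psc region, values were 3.27 in gd7 and 4.00 in wild-type. At the second, they were 3.87 in gd7 and 3.23 in wild-type. At Trl, 2 gd7 regions overlapped a wild-type region of 2450 bp with 4.13. The wider of them was 1155 bp with 3.89. At th, the gene of an inhibitor of apoptosis, the widest gd7 region had 4.10 over 2450 bp. The wild-type regions that overlapped it, of 1295 and 2065 bp, had 3.02 and 2.83.

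Another 134 broad gd7 regions overlapped only narrower wild-type regions. Their median value was 3.24 in gd7 and 2.46 for the strongest wild-type partner, and their median width was 1295 bp in gd7 against 560 bp for the widest wild-type partner. At 101 of them, the gd7 peak centre lay inside the wild-type region. The gd7 region reached past its wild-type partners on both sides in 83 cases and on 1 side in 46, and the longer reach had a median of 455 bp. The mirror group held 87 broad wild-type regions with narrower gd7 partners, of 595 bp in gd7 against 1225 bp in wild-type at the median and with values of 2.58 in gd7 and 2.98 in wild-type. Of these, 52 reached past their gd7 partners on both sides, with a median of 455 bp for the longer reach. Each genotype also had broad regions that overlapped 2 or more regions of the other, whether wholly or in part. There were 39 in gd7 (14.8%, beside 2.48% of the list) and 34 in wild-type (16.6%, beside 1.53% of the list). A longer region has more room to meet 2 others, so the choice by width itself favours these contrasts.

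At the 223 broad gd7 regions with a wild-type partner, the median of gd7 minus wild-type was 0.61 on the log2 scale (interval 0.52 to 0.67). The gd7 value was the higher at 178 of them (79.8%, beside 49.4% of all shared gd7 regions). A difference of more than 2-fold was found at 52 in favour of gd7 (23.3%, beside 7.98%) and at 4 in favour of wild-type (1.79%, beside 7.24%). At the 176 broad wild-type regions with a gd7 partner, the median was -0.11 (-0.19 to 0.07), and gd7 was the higher at 78 (44.3%, beside 53.2% of all shared wild-type regions), with 19 more than 2-fold higher in gd7 (10.8%, beside 10.2%) and 9 more than 2-fold lower (5.11%, beside 5.92%). Width and value rise together within a list, so regions chosen as wide in a genotype were also chosen as strong there, and the direction of these medians is a description. Where the wild-type partner was narrower, the median at broad gd7 regions was 0.64. Where the gd7 partner was narrower, the median at broad wild-type regions was -0.42. Where both were broad, gd7 was the higher in 60 of 91 pairs.

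**Figure D4:**
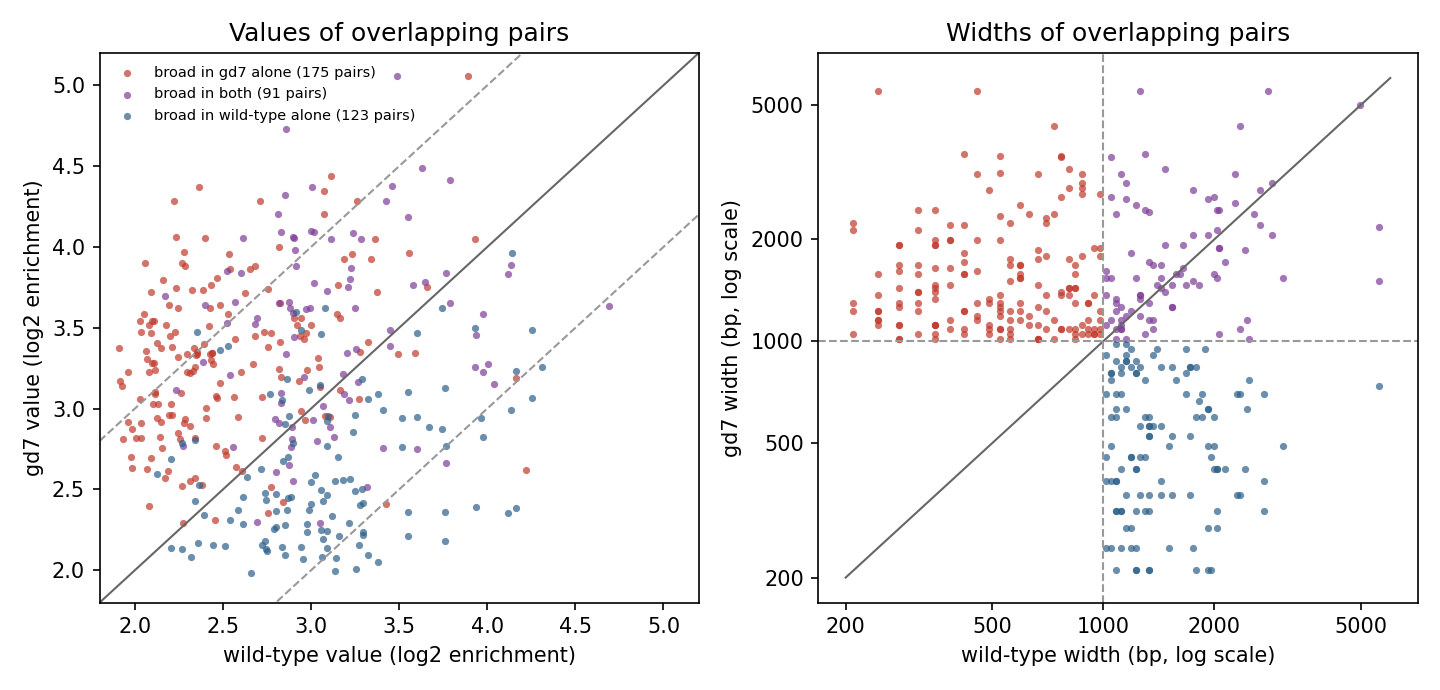
Overlapping pairs of regions with at least 1 broad member: gd7 value against wild-type value (left, log2 enrichment, with the line of equality and dashed lines at 2-fold) and gd7 width against wild-type width (right, bp on log axes, dashed at 1000 bp). Red pairs are broad in gd7 alone (175), purple in both (91) and blue in wild-type alone (123); red points lie mostly above the line of equal values (161 of 175) and blue ones mostly below it (103 of 123).

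The largest differences in favour of gd7 at broad regions were at an X region from 6890730 to 6892795, with 4.73 in gd7 and 2.86 in wild-type, and at bbg, with 3.97 in gd7 and 2.28 in wild-type. Next came scyl, an X region from 18692590 to 18694445 with 3.80 in gd7 and 2.16 in wild-type, and CG15480, with 4.29 in gd7 and 2.71 in wild-type. At cv-2, which encodes a secreted BMP-binding protein, the gd7 region was 1820 bp with 3.59 and the wild-type region 420 bp with 2.05. At dnt, a receptor gene of the Ryk family, it was 1890 bp with 3.54 in gd7 and 945 bp with 2.03 in wild-type. On the other side, the broad region at noc, a zinc finger gene, had 2.62 in gd7 and 4.22 in wild-type, where it was 945 bp and so fell just short of 1000 bp. At emc, whose product blocks DNA binding by helix-loop-helix factors and which had the strongest broad region of wild-type, the peak was lower but wider in gd7, at 3.64 over 1820 bp, against 4.69 over 1190 bp in wild-type. A second emc region was 2205 bp with 3.38 in gd7, over wild-type regions of 420 and 385 bp with 2.15 and 2.34. Wild-type broad regions that were more than 2-fold lower in gd7 included so, a homeobox gene of the eye, with 1.99 in gd7 and 3.14 in wild-type, and Mkp3, a MAP kinase phosphatase, with 2.16 in gd7 and 3.27 in wild-type. The Hox gene Antp had 2.07 in gd7 and 3.14 in wild-type at its broad region.

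Some broad regions had no partner at all. In gd7 there were 41, with a median value of 3.01 (2.27 to 4.01) and a median width of 1225 bp. The strongest, from 11229295 to 11230800 on 3L between named regions of CG42671 and Ir68a, had 4.01. Next were a region on 3R from 4030530 to 4031790, between grn and DNApol-iota, and a region on X from 19679730 to 19681515, both with 3.76. The widest was at dpp. In wild-type there were 29 without a gd7 region, with a median value of 2.66 (2.16 to 3.90) and a median width of 1120 bp. The strongest was at elB, the zinc finger gene next to noc, on 2L from 14409500 to 14410620 with 3.90. Others were at CG9007 with 3.19, exba with 3.09 over 1750 bp, CG42671 with 2.95 and tacc with 2.89. The gd7 signal at these places is not listed.

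Broad regions were then counted at genes known for their roles in the early embryo. Of the 1397 named genes with a region in either list, 9.81% had a broad region in gd7 and 8.73% in wild-type. Of 9 dorsal ectoderm and amnioserosa genes with a region, 6 had a broad one in gd7 (ush, tup, zen, dpp, egr and Doc1) and 1 in wild-type (ush). These lists were chosen with earlier results of these data known, so the counts are a description. Names were missing for 97 broad gd7 and 66 broad wild-type regions, so the counts are minimums. Of the gd7 ones, 7 lay next to a named region of a listed gene (tup, Doc1 and Doc2, Doc3, Antp, grn, sca and vn), whereas the unnamed wild-type ones lay on X and 3R, outside the stretches with names. At dpp, the gene of the ligand itself, gd7 had a region of 1890 bp with 3.07 from 2460640 to 2462530 on 2L, where wild-type had none, and one of 1295 bp with 3.34 over a wild-type region of 525 bp with 2.44. At zen, a homeobox gene of the amnioserosa, the region was 2135 bp with 3.32 in gd7 and 315 bp with 2.25 in wild-type. At tup, a LIM-homeobox gene, it was 1645 bp with 3.74 in gd7 and 385 bp with 2.23 in wild-type. At egr, which encodes a TNF ligand, a gd7 region of 1995 bp with 3.46 covered wild-type regions of 525 and 455 bp with 2.09 and 2.97. At ush, the gene of a GATA cofactor, the regions were broad in both genotypes, at 2625 bp with 3.70 in gd7 and 1155 bp with 2.17 in wild-type. A second broad ush region in gd7, of 1295 bp with 2.62, lay over a wild-type region of 315 bp with 2.07. Doc1, a T-box gene, was the exception in value, with 2.95 over 1225 bp in gd7 and 3.08 over 700 bp in wild-type. The listed genes without a broad region were Doc2, Doc3 and Kr-h1, although a broad gd7 region of 1365 bp with 3.18 and no wild-type partner lay between Doc2 and Doc1, from 9021810 to 9023175.

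None of 6 mesoderm genes with a named region (twi, sna, Mef2, stumps, ths and tkv) had a broad region in either genotype. The same held for 6 gap and head genes (Kr, kni, knrl, hkb, ems and E5). Of the mesoderm list, tkv is also in the list of Dpp feedback genes and is counted again there. Over all named genes the share was 9.81% in gd7 and 8.73% in wild-type, so groups this small cannot show a lack of broad regions. Listed genes without a named region, as on X and most of 3R, could not be counted. Some regions of these mesoderm, gap and head genes were strong and short. E5, a homeobox gene, had a highest value of 2.62 in gd7 and 4.31 in wild-type, with a widest region of 315 bp in gd7 and 350 bp in wild-type. At knrl, a gap-like nuclear receptor gene, the widest region was 700 bp with 3.18 in gd7 and 665 bp with 3.83 in wild-type. Of 5 Hox genes with a named region, none had a named broad one in gd7, and Antp had one in wild-type, at 1155 bp. An unnamed broad gd7 region of 1120 bp with 2.73 and no wild-type partner lay between named Antp regions, on 3R from 2819845 to 2820965. Dfd had a single region of 315 bp with 3.47 in gd7 and of 385 bp with 4.68 in wild-type. Of 8 neuroectoderm genes, Egfr and D were broad in gd7 and SoxN in wild-type. Egfr had 2380 bp with 3.96 in gd7, over wild-type regions of 630 and 735 bp with 2.53 and 3.23. At SoxN, a Sox factor gene, the gd7 region was the shorter and the stronger, at 630 bp with 3.47, against 1085 bp with 2.35 in wild-type. The strongest SoxN region of wild-type was another, with 3.94. D, another Sox factor gene, lay on either side of the limit, with 1050 bp in gd7 and 945 bp in wild-type.

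Of 9 genes in the pair-rule list, h, odd and opa were broad in gd7. The only one broad in wild-type was drm, a relative of odd that is not itself a pair-rule gene. The widest region of h, a gene of a helix-loop-helix repressor, was 1540 bp with 2.91 in gd7 and 595 bp with 2.15 in wild-type. At opa, a zinc finger gene, it was 1190 bp with 3.38 in gd7 over a wild-type region of 525 bp with 2.21, but the strongest opa region of all was elsewhere and in wild-type, with 3.94 over 525 bp. Of 9 segment polarity genes, nkd, a Wingless antagonist, and ptc, the Hedgehog receptor, were broad in both genotypes. The broad ptc region had nearly the same borders, at 2135 bp with 3.62 in gd7 and 2030 bp with 2.99 in wild-type. A second ptc region was 455 bp with 2.94 in gd7 and 1015 bp with 3.97 in wild-type, so at this second site the wild-type region was the wider and the stronger. Of 5 Notch-related genes, Tom, Brd and emc were broad in both. This count leaves out BobA of the Bearded complex, whose name the list did not match. BobA had a broad region in each genotype, at different places. Of 5 genes in the zinc finger and GATA group with a named region, noc was broad in gd7 and elB in wild-type. Of the genes of Dpp feedback, tkv alone had named regions, and none of them was broad. It is the same gene that was counted in the mesoderm list. Regions on X and on most of 3R have no names here, so genes lying there could not be counted. The paper names brk, listed both here and with the neuroectoderm genes, as a Dorsal target with less CBP in gd7 embryos. Over all named genes, 137 had a broad region in gd7, 122 in wild-type, and 55 in both.

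**Figure D5:**
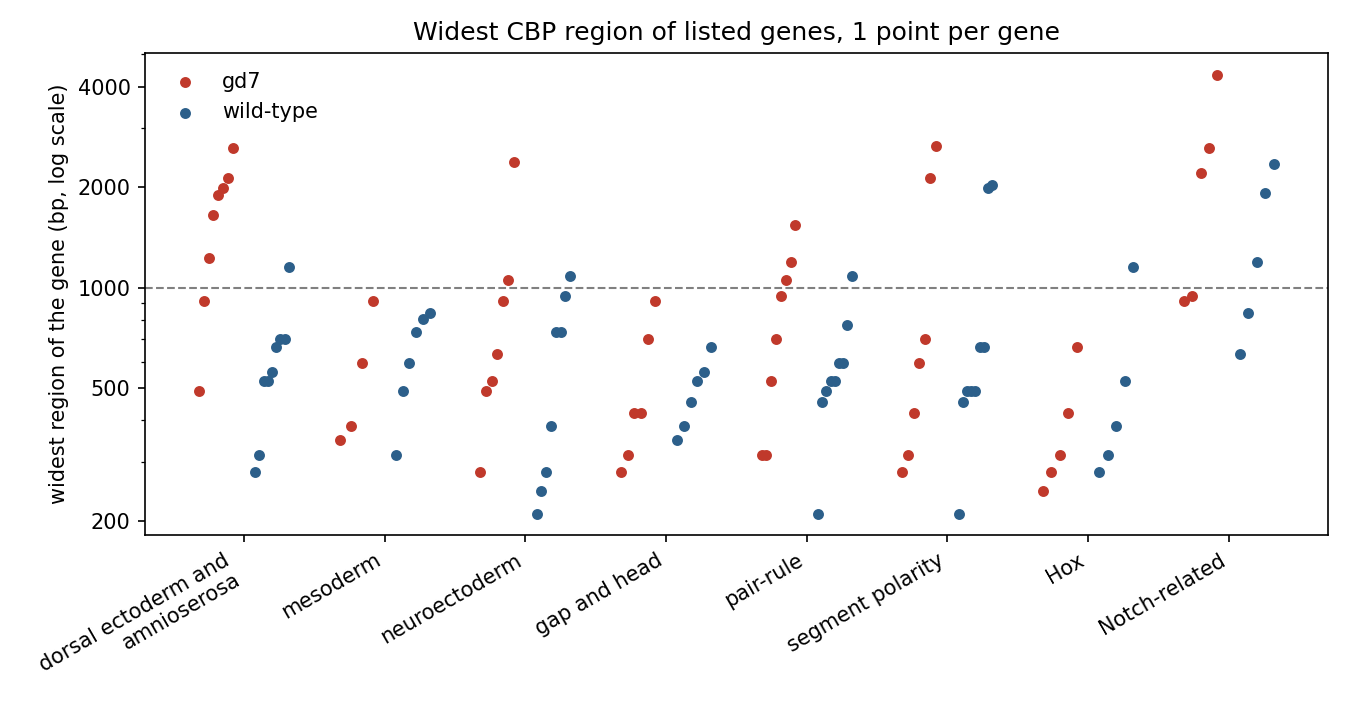
Width of the widest CBP region of each listed gene (y, bp on a log scale, dashed at 1000 bp) in 8 gene groups (x), gd7 in red to the left of wild-type in blue, 1 point per gene with a region. Of the dorsal ectoderm and amnioserosa genes, 6 lie above the line in gd7 and 1 in wild-type. None of the 6 mesoderm or 6 gap and head genes with a named region does in either. Over all named genes the share is 9.81% in gd7 and 8.73% in wild-type.

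Broad wild-type regions were centred at start sites less often than narrower ones. On 2L, 2R and 3L, where every wild-type region has a nearest start site in the peak table, the centre was within 500 bp of one for 50 of 116 broad regions (43.1%, 34.5 to 52.2%), beside 55.2% of all regions there, and for 889 of 1585 narrower ones (56.1%, 53.6 to 58.5%). Among broad wild-type regions with a named gene, the share was 22 of 60 where the gd7 partner was broad too, 30 of 58 where it was narrower and 9 of 21 where there was none. Distances for gd7 were held for too few regions to give this share. Broad regions also lay near each other: another broad region of the same list was within 10 kb of 99 gd7 ones (37.5%, beside 23.5% of all gd7 regions) and of 52 wild-type ones (25.4%, beside 12.3% of all wild-type regions). The gd7 list holds more broad regions that can lie near, so the shares of the 2 lists are not compared. Joined into loci over gaps of up to 10 kb, the broad regions of both lists made 293 loci, of which 120 had broad regions in gd7 alone, 85 in both and 88 in wild-type alone.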

How the data were processed

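CBP and input libraries of gd7 and wild-type embryos were sequenced on SOLiD. The authors mapped reads to release 5 of the genome, took ChIP over input as a log2 ratio, set it at steps of 35 bp, smoothed it, kept the highest values by a percentile limit and joined them over short gaps. The lists hold no read depth, and the read totals of the study's methods were not used here. The deposited column is this log2 value minus a constant, found from matched rows of the study's peak table as 1.93 in gd7 (170 rows) and 1.88 in wild-type (1999 rows), with deviations up to 5.0e-06, and added back. The genotypes were not scaled to each other. Regions sharing 1 bp or more were paired in Python 3.11.15, numpy 2.4.6 and pandas 2.3.3 (medians and intervals with scipy 1.17.1, plots with matplotlib 3.10.9), after a test on simulated regions. A difference used the strongest partner. Gene names come from the peak table. A gene was described where it had a broad region and belonged to 1 of 10 gene lists, or lay at the widest, strongest, most changed, most divided or unpartnered broad regions (10 of each). BobA and the list genes without a broad region fall outside this rule and were chosen after their values were seen. The members and lists were chosen with earlier results of these data known. Alternatives changed the width, the lists, the joining, the overlap rule, the partner and the constant. Sequences and motifs were not analysed here.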

Additional observations from a re-analysis of the deposited data

How the results depend on the processing

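No paired analysis was possible because there is 1 CBP library per genotype. Width rests on the authors' limit and joining, which set where a region ends, and signal under that limit is not listed. No difference was set against replicate error. Of 66 recomputed values, 35 stayed within the error or within 1.5 times a count, and 31 were labelled as moved. These 31 include the shares of the own lists, 13.6% and 6.80%, which are percentages set beside counts. The label for a reversal was given to 0 values, but it missed changes of direction. With values of at least 2.5, the median at broad wild-type regions went from -0.11 to 0.076. With neighbours within 500 bp joined, 264 broad regions in gd7 and 205 in wild-type became 331 and 333.

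With a width of 800 bp or more, broad regions numbered 426 in gd7 and 381 in wild-type. The share of wild-type ones bound in gd7 was then 79.5%, and that of gd7 ones over a broad wild-type region 40.6%. The shares overlapping 2 or more regions of the other list were 10.3% in gd7 and 10.5% in wild-type. With 1500 bp or more, broad regions numbered 100 in gd7 and 64 in wild-type, and 94.0% and 96.9% were bound in the other genotype. Those overlapping 2 or more regions made up 28.0% and 35.9%. As shares of their own lists the numbers were 13.6% in gd7 and 6.80% in wild-type.

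Joining neighbours within 500 bp gave 331 broad regions in gd7 and 333 in wild-type, so the larger number in gd7 was not kept under this setting. It was kept with values of at least 2.5, at 253 in gd7 and 181 in wild-type. With the wild-type list reduced to its strongest regions, as many as in gd7, the numbers were 264 in gd7 and 198 in wild-type. In the joined lists, 79.9% of wild-type ones were bound in gd7, and 42.9% of gd7 ones lay over a broad wild-type region. The median at broad gd7 regions was 0.50, and 9.97% in gd7 and 8.41% in wild-type overlapped 2 or more regions.

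Keeping only regions at 2.5 or higher in each list, 55.7% of broad gd7 and 68.5% of broad wild-type regions overlapped. The shares overlapping 2 or more regions were 4.74% and 5.52%. The medians of gd7 minus wild-type were 0.36 at broad gd7 and 0.076 at broad wild-type regions. The second median turned sign, and its interval in the full lists includes 0. With the wild-type list reduced to its strongest regions, as many as in gd7, 69.7% of broad gd7 regions overlapped. The median was then 0.50, and 7.95% of broad gd7 regions overlapped 2 or more. With the centre rule, overlap was 70.8% in gd7 and 79.0% in wild-type.

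Among alternatives chosen after seeing the data, broad regions among the 100 strongest numbered 79 in gd7 and 27 in wild-type at 800 bp, 43 in gd7 and 14 in wild-type at 1500 bp, and 65 in gd7 and 25 in wild-type in the joined lists. Dorsal ectoderm and amnioserosa genes with a broad region numbered 7 in gd7 and 1 in wild-type at 800 bp, and 5 in gd7 and 0 in wild-type at 1500 bp.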
